A study of Mus musculus with 6 samples.

Results

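The 9 genes described here encode the enzymes that make serine from a glycolytic intermediate and that move its carbon through the folate pathway. They were taken by symbol from the deposited table of RAW264.7 macrophages, which lists 54429 gene symbols, and all 9 were found. Phgdh, Psat1 and Psph make serine, Shmt1 and Mthfd1 are the cytosolic folate enzymes, and Shmt2, Mthfd2, Mthfd1l and Aldh1l2 are the mitochondrial ones. Every sample came from RAW264.7, an established murine line with macrophage properties that arose in a tumour induced by a leukaemia virus. C/D cells were cultured for 3 d with a composite of GelMA (a methacryloyl-modified gelatin hydrogel), PEDOT:PSS (a polymer mixture that conducts current) and PLLA/PDA, under dynamic conditions set by ultrasound at 48 kHz for 5 min. Gel/S cells, the control, were kept for the same 3 d in static culture with GelMA alone. Each group has 3 libraries, and material and ultrasound differ together, so their effects cannot be told apart. The table's columns carry the letters US_M or GEL in place of the group names; US_M was taken to stand for ultrasound, hence C/D, and every direction below rests on that reading.

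Serine synthesis starts from 3-phosphoglycerate: Phgdh oxidises it, Psat1 transfers an amino group from glutamate, and Psph removes the phosphate. A serine hydroxymethyltransferase, Shmt1 in the cytosol or Shmt2 in mitochondria, then splits serine into glycine and a carbon unit carried on tetrahydrofolate. In mitochondria Mthfd2 oxidises that unit and Mthfd1l releases it as formate, while Aldh1l2 can burn it to carbon dioxide with a gain of NADPH. In the cytosol Mthfd1, a single protein with 3 activities, takes up formate and supplies purine and thymidylate synthesis. In macrophages the route is known to feed glutathione and methyl groups during activation.

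The libraries held 12818831 to 15802627 counts in C/D and 15579679 to 16525699 in Gel/S, and the members between 35 (Aldh1l2, C/D 2) and 3127 counts (Phgdh, Gel/S 2) in a library. Mitochondrial transcripts took 9.17 to 10.4% of the counts in C/D and 5.59 to 9.02% in Gel/S, lowest in Gel/S 1. Macrophage markers were present, with a summed level of 11020 to 11190 FPKM in C/D and 13540 to 14140 FPKM in Gel/S over 10 genes. Lyz2 alone averaged 9110 FPKM over the 6 libraries and made up most of that sum. Of the 9 markers tested, 1 fell (Csf1r). FPKM is the authors' count scaled by gene length and by a library total. The summed markers of stromal cells, osteoblasts, endothelium, epithelium, T cells, B cells and neutrophils reached at most 0.968 FPKM in any C/D library and 1.07 FPKM in any Gel/S library. Of the 4 dendritic cell markers only Itgax, which macrophages also express, passed the filter on low values, and it fell. Whether replicates were separate cultures is not stated in the labels, so the p-values measure the spread between these libraries, which may be technical.

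The mRNAs of the folate enzymes Mthfd1l, Mthfd2 and Mthfd1 and of the serine synthesis enzyme Psat1 were lower in C/D than in Gel/S macrophages. Their percent change was −31.0 (Mthfd1) to −38.8 (Mthfd1l). The first and last enzymes of serine synthesis, Phgdh and Psph, and both serine hydroxymethyltransferases, Shmt1 and Shmt2, did not pass the test. In a mixed RNA sample, fewer cells expressing a gene and less of its mRNA per cell cannot be told apart. Of the 9 members, 8 had a mean of at least 1 FPKM and were tested; 4 fell, none rose and 4 did not pass. Over all 11708 genes tested, 27.0% changed, 13.9% fell (1631 genes) and 13.1% rose (1532 genes), while limma on log2(TPM + 1) gave 1510 fallen and 633 risen. A change is a Benjamini-Hochberg adjusted p below 0.05 in edgeR's quasi-likelihood test. Among the 3148 tested genes whose listed length lay within that of the tested members (2486 to 4442 bases), 17.1% fell. The median log2 fold change, C/D over Gel/S, was −0.41 for the 8 members and 0.01 for all genes. FPKM of the 6 libraries separated the groups, with C/D lower, for 6 of the 8 tested members and for 27.1% of all genes tested. The groups were apart with C/D higher for no tested member and for 19.1% of all genes tested. These separations rest on the library scaling of the authors' FPKM and were not counted under the scaling used in the test. The number of changed genes over the whole table, 3163, dropped to between 1804 and 1960 when C/D 1, C/D 2, C/D 3 or Gel/S 3 was left out (1812, 1804, 1960 and 1892 in that order), whereas 4 to 5 members fell when any library was left out, always including Psat1, Mthfd1, Mthfd2 and Mthfd1l.

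**Figure D1:**
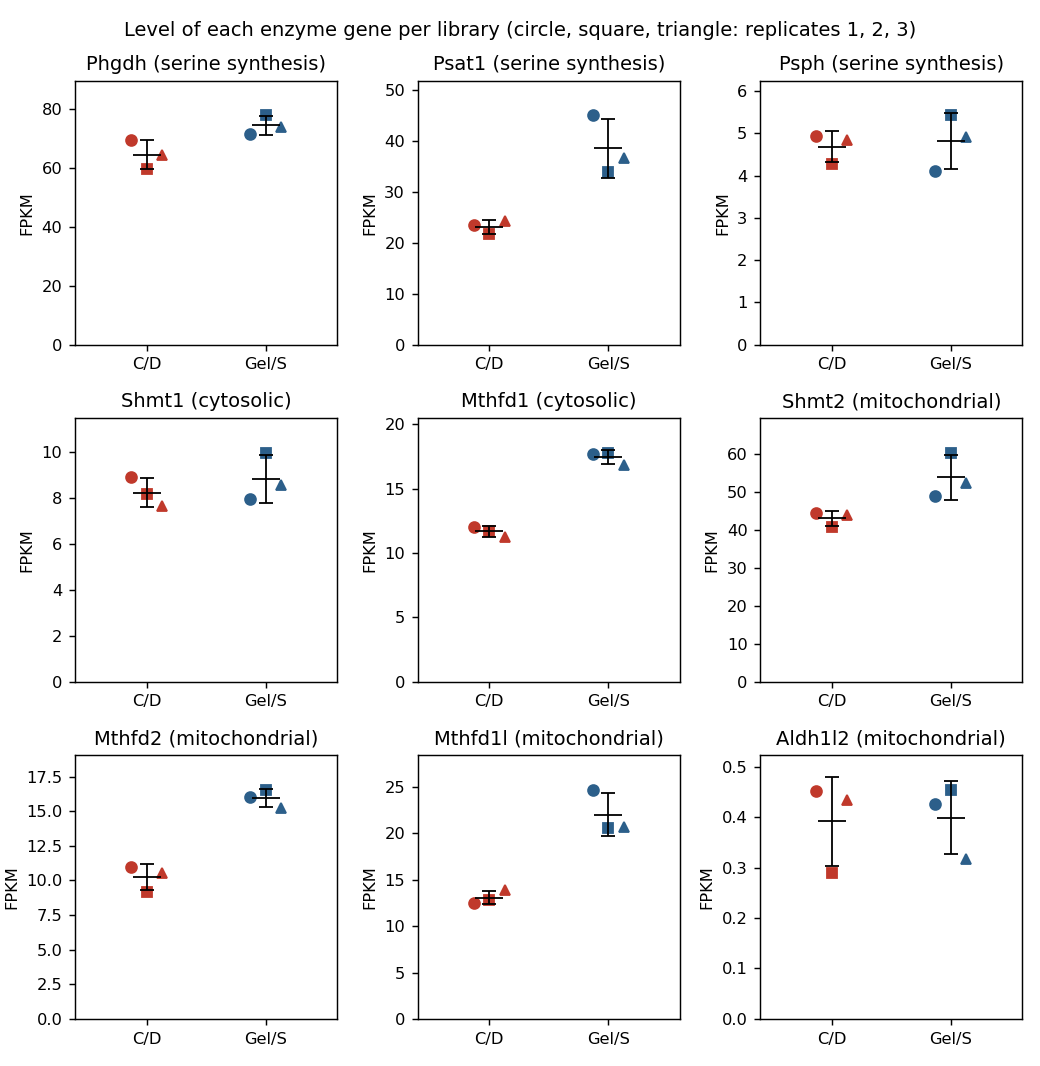
FPKM of each of the 9 genes (vertical axis, from 0) in the 3 C/D libraries (red, left) and the 3 Gel/S libraries (blue, right), with the mean and SD in black. The groups are apart for Psat1, Mthfd1, Mthfd2 and Mthfd1l, apart by a narrow gap for Phgdh and Shmt2, and overlap for Psph, Shmt1 and Aldh1l2.

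Sequence upstream of the annotated start was examined because several members fell together. RefSeq promoter windows on GRCm38.p6, from 250 bases before to 50 bases after a start, were found for 8 of the 9 members. The 4 motifs searched on both strands were TGATGNAA (the C/EBP-ATF response element through which ATF4 is known to act on amino acid genes), CACGTG (the E-box bound by MYC), TGACGTCA (the cAMP response element) and CCAAT (the box bound by NF-Y). The first 3 were in no member window, and they occur in 3.97%, 7.15% and 1.79% of all 32851 windows. The 8 members have 9 windows, as Psat1 has 2. The starts are those of RefSeq, and the windows of Psat1, Shmt1 and Mthfd2 lie inside the gene spans given below. CCAAT was in 6 of the 9 windows, those of Phgdh, Psph, Shmt1, Mthfd1 and Mthfd2 and 1 of the 2 of Psat1, and in 37.4% of all windows. It was thus present in 3 of the 4 members that fell and in 3 of the 4 that did not pass. The 250 bases before the start are shown for the 2 members with the lowest log2 fold changes, namely the Psat1 window with CCAAT and that of Mthfd1l, which has none of the 4 motifs. The other Psat1 window (chr19:15924623-15924872, minus strand), not shown because annotated exons overlap it, has none either. Capitals mark CCAAT, each sequence runs 5′ to 3′ towards the start, and the windows are chr19:15925060-15925309 (minus strand) and chr10:3972825-3973074 (plus strand).
Psat1: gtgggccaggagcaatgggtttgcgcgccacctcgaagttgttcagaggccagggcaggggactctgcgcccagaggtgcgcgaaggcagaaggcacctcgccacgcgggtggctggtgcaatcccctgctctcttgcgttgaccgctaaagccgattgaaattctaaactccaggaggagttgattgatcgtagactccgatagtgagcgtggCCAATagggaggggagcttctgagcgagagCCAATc
Mthfd1l: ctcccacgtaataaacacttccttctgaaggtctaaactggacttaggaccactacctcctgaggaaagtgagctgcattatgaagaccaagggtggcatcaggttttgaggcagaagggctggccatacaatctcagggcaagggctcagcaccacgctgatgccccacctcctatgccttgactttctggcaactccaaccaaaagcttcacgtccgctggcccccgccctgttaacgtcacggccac
A match is a description of the letters and no evidence of binding, and a window without a match says nothing of sites elsewhere in the gene.

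Phgdh catalyses the committed step of serine synthesis and was the most abundant member. It lies on chromosome 3 (98313170 to 98339990, minus strand, GRCm38) and has 12 exons in its longest coding transcript in GENCODE M21. Its level was 69.5, 59.7 and 64.5 FPKM in C/D 1 to 3 and 71.8, 78.0 and 74.1 FPKM in Gel/S 1 to 3. In FPKM every C/D library was below every Gel/S library, but C/D 1 and Gel/S 1 lay close together. With so narrow a gap, this order may not hold under the library scaling used in the test. The log2 fold change of −0.17 (SE 0.0905) did not pass (edgeR adjusted p = 0.187), and its 95% interval ran from −0.36 to 0.03. A processed copy, Phgdh-ps1, held 12 counts over the C/D libraries and 4 over the Gel/S libraries, against at least 2247 for Phgdh in each library.

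Psat1, the aminotransferase of the second step, fell. It lies on chromosome 19 (15904678 to 15947337, minus strand) and its longest coding transcript has 9 exons. Its level was 23.4, 21.7 and 24.2 FPKM in C/D 1 to 3 and 45.0, 33.9 and 36.6 FPKM in Gel/S 1 to 3. The highest C/D library stood well below the lowest Gel/S library, and Gel/S 1 was the highest of the control. Its log2 fold change stood at −0.69 (SE 0.105; edgeR adjusted p = 0.00111), and it was −0.58 (adjusted p = 8.2e-05) without Gel/S 1.

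Psph, the phosphatase that releases serine, is on chromosome 5 (129765558 to 129787449, minus strand). It had 4.94, 4.28 and 4.85 FPKM in C/D 1 to 3 and 4.12, 5.43 and 4.91 FPKM in Gel/S 1 to 3. The C/D values lay inside the range of the control. The log2 fold change was 0.0014 (SE 0.13, edgeR adjusted p = 0.995) with a 95% interval of −0.28 to 0.29, so a change of the size seen for Psat1 lay outside the interval. Its sign turned in most alternative settings. Psph overlaps the 5′ end of Cct6a, a chaperonin gene on the other strand, by 452 bases. Cct6a had 2609 counts on average in C/D and 3456 in Gel/S, whereas Psph had at most 379 in a library. An effect of the overlap on the Psph counts was not tested. The sources used here do not give the strandedness of the libraries.

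Of the 3 consecutive enzymes, only Psat1 passed, and differences in fold change between the 3 genes were not tested. The ratio of Psat1 to Phgdh FPKM within a library was 0.336, 0.363 and 0.375 in C/D 1 to 3 and 0.627, 0.435 and 0.494 in Gel/S 1 to 3. The C/D libraries were all lower, at 0.698-fold of the control on average. The ratio of Psph to Psat1 ran the other way, with 0.203 ± 0.00715 in C/D and 0.129 ± 0.0345 in Gel/S (SD, n = 3 each). Both ratios were chosen after the values were seen and were not tested.

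In the cytosol, Mthfd1 fell and Shmt1 did not pass. Mthfd1, the trifunctional enzyme on chromosome 12 (76255298 to 76319803, plus strand, 28 exons), had 12.1, 11.7 and 11.3 FPKM in C/D 1 to 3 and 17.7, 17.8 and 16.8 FPKM in Gel/S 1 to 3. The libraries of each group were tightly grouped, with a wide gap between the groups. Its log2 fold change was −0.53 (SE 0.0813, edgeR adjusted p = 0.00116). Shmt1, the cytosolic serine hydroxymethyltransferase on chromosome 11 (60788104 to 60811718, minus strand), had 8.89, 8.17 and 7.62 FPKM in C/D 1 to 3 and 7.93, 9.96 and 8.55 FPKM in Gel/S 1 to 3. Its groups overlapped, with a log2 fold change of −0.06 (SE 0.115, 95% interval −0.31 to 0.19, edgeR adjusted p = 0.726). Its 3′ end shares 184 bases with Smcr8, an autophagy gene on the other strand with 2590 counts on average in C/D and 2166 in Gel/S.

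In mitochondria, Mthfd1l and Mthfd2 fell, Shmt2 lay at the edge of the threshold and Aldh1l2 was barely detected. Mthfd1l, the formate-releasing synthetase on chromosome 10 (3973118 to 4167081, plus strand, 28 exons), had 12.6, 12.8 and 13.9 FPKM in C/D 1 to 3 and 24.7, 20.6 and 20.7 FPKM in Gel/S 1 to 3. Gel/S 1 was again the highest library, and the gap between the groups was wider than either group's spread. At −0.71 (SE 0.0919; adjusted p = 0.000456 in edgeR), its log2 fold change was the lowest among the members, and 2.59% of the genes tested had a lower one. Without Gel/S 1 it was −0.63 (adjusted p = 3.5e-05).

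Mthfd2, the mitochondrial dehydrogenase and cyclohydrolase on chromosome 6 (83305691 to 83325908, minus strand, 8 exons), had 11.0, 9.18 and 10.5 FPKM in C/D 1 to 3 and 16.03, 16.6 and 15.3 FPKM in Gel/S 1 to 3. No C/D library reached the level of a Gel/S library. The log2 fold change was −0.60 (SE 0.0966, edgeR adjusted p = 0.00156), a percent change of −33.9. Its paralog Mthfd2l, which carries out the same step, had 1.20 ± 0.13 FPKM in C/D and 1.05 ± 0.0903 FPKM in Gel/S (SD, n = 3 each) and did not pass (log2 fold change 0.23, edgeR adjusted p = 0.301).

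Shmt2, which loads carbon units onto folate in mitochondria, is on chromosome 10 (127517123 to 127522444, minus strand) and was second in level. It had 44.6, 41.0 and 43.9 FPKM in C/D 1 to 3 and 48.9, 60.5 and 52.3 FPKM in Gel/S 1 to 3. All C/D libraries were below all Gel/S libraries, with Gel/S 2 the highest. The log2 fold change of −0.28 (SE 0.0990) missed the threshold (edgeR adjusted p = 0.0547). Over the 16 alternative settings its adjusted p ran from 0.00575 to 0.194 and passed in 5, among them DESeq2 (0.0383), and the authors' deposited table gives an adjusted p of 0.0142. Aldh1l2, the mitochondrial formyltetrahydrofolate dehydrogenase (chromosome 10, 83487450 to 83534140, minus strand), was under the level filter, with 44, 35 and 49 counts in C/D 1 to 3 and 51, 55 and 37 in Gel/S 1 to 3. These counts gave 0.451, 0.290 and 0.434 FPKM in C/D and 0.425, 0.454 and 0.317 FPKM in Gel/S, so the groups overlapped at a level where a difference of moderate size could not be seen. It shares 1056 bases with D10Wsu102e, on the other strand, which had 1332 counts on average in C/D and 1447 in Gel/S.

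**Figure D2:**
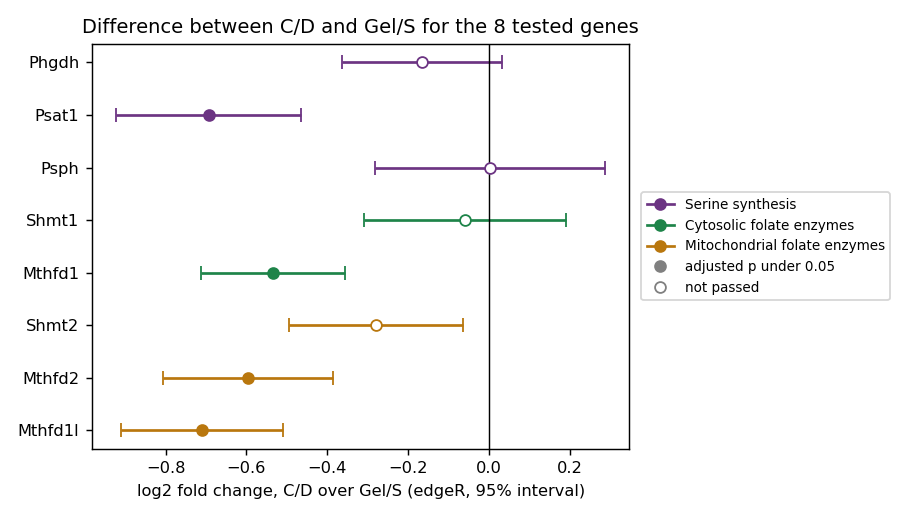
Log2 fold change of C/D over Gel/S (horizontal axis) with its 95% interval for the 8 tested genes, coloured by role and filled where the edgeR adjusted p was under 0.05. Psat1, Mthfd1, Mthfd2 and Mthfd1l lie between −0.53 and −0.71, and the intervals of Phgdh, Psph and Shmt1 include 0.

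The cytosolic and mitochondrial arms were compared through ratios of FPKM within a library, which do not depend on how libraries are scaled. The mitochondrial enzymes made up 77.1 ± 1.26% of the summed level of the 6 folate enzymes in C/D and 77.9 ± 0.0997% in Gel/S (SD, n = 3 each). That sum was 66.9 ± 3.16 FPKM in C/D and 92.3 ± 5.12 FPKM in Gel/S for the mitochondrial enzymes, and 19.9 ± 1.04 FPKM in C/D and 26.2 ± 1.33 FPKM in Gel/S for the cytosolic ones. Both sums were lower in every C/D library, and the proportion differed by less than the SD of the C/D libraries. Shmt2, which did not pass, averaged 43.2 FPKM in C/D and 53.9 FPKM in Gel/S. It made up most of the mitochondrial sum, so the proportion says little of Mthfd1l and Mthfd2.

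Of the 4 ratios tested, none passed, and 3 against 3 libraries cannot give an exact p under 0.1. Shmt2 over Shmt1 was 5.01, 5.01 and 5.77 in C/D 1 to 3 and 6.17, 6.07 and 6.12 in Gel/S 1 to 3. All C/D values were lower, by a log2 difference of −0.22 (2-sided exact permutation p = 0.1, 0.4 after Benjamini-Hochberg adjustment over the 4 ratios). Mthfd2 over Mthfd1 averaged 0.877 ± 0.0821 in C/D and 0.915 ± 0.0129 in Gel/S (SD, n = 3 each), a log2 difference of −0.06 (exact permutation p = 0.9). Mthfd1l over Mthfd1 averaged 1.12 ± 0.0993 in C/D and 1.26 ± 0.123 in Gel/S (log2 difference −0.17, exact permutation p = 0.2, n = 3 each). Within mitochondria, Mthfd2 over Mthfd1l averaged 0.785 ± 0.0820 in C/D and 0.729 ± 0.0770 in Gel/S (log2 difference 0.11, exact permutation p = 0.5, n = 3 each). Single libraries moved these differences: Mthfd2 over Mthfd1 turned to 0.015 without C/D 2 and was −0.11 without C/D 3, Mthfd1l over Mthfd1 was −0.096 without Gel/S 1, and Mthfd2 over Mthfd1l was 0.026 without C/D 1, 0.027 without Gel/S 1, 0.17 without C/D 2 and 0.18 without Gel/S 2. Shmt2 over Shmt1 kept its direction, at −0.29 to −0.19. For the dehydrogenases and synthetases, which fell in both compartments, no shift between compartments beyond the spread of the libraries was detectable with 3 libraries a group.

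**Figure D3:**
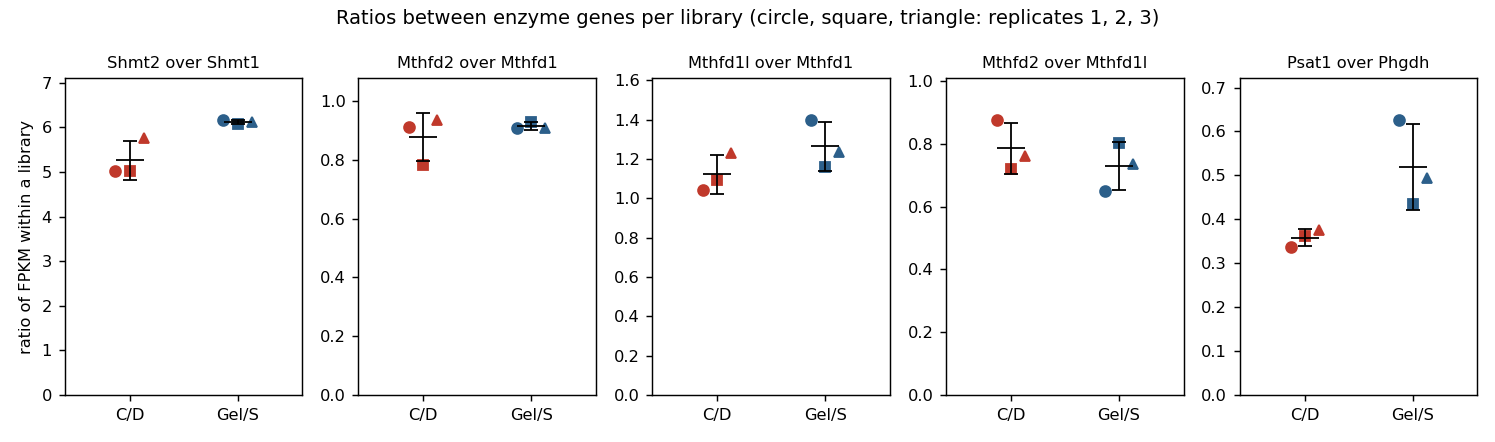
Ratio of FPKM between pairs of enzyme genes within each library (vertical axes, from 0) for the 3 C/D libraries (red, left) and the 3 Gel/S libraries (blue, right), with mean and SD in black. Shmt2 over Shmt1 and Psat1 over Phgdh are lower in every C/D library, and the other 3 ratios overlap between the groups.

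The order of levels was the same in both groups: Phgdh, Shmt2, Psat1, Mthfd1l, Mthfd1, Mthfd2, Shmt1, Psph and Aldh1l2, from high to low in FPKM. No neighbours in that order overlapped in their library values within either group. The order depends on the listed gene lengths by which FPKM is scaled. These exceed the longest coding transcript unevenly, with 4329 against 1733 bases for Psph and 3487 against 2085 for Mthfd2. Genes of similar level could thus change places with other lengths, in 1 group or both, which was not tested. The mean over the 6 libraries of Phgdh exceeded that of 93.7% of the genes tested and that of Shmt2 exceeded 90.9%, whereas Psph exceeded 36.1%. In the deposited FPKM the order held although the distances shrank or grew. Psat1 stood at 23.1 ± 1.31 FPKM in C/D and 38.5 ± 5.77 FPKM in Gel/S. Psph, the next enzyme, stood at 4.69 ± 0.357 and 4.82 ± 0.658 FPKM in C/D and Gel/S (SD, n = 3 each).

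The neighbouring pathways were described from 9 lists holding 88 genes, of which 70 were tested; 15 fell (21.4%), 4 rose (5.71%) and 51 did not pass, where 13.9% of all genes tested fell and 13.1% rose. The methionine cycle list (12.5% fell) and the ATF4 list (11.1% each way) lay near those shares. The lists were chosen with earlier results of these data known, so setting them beside all genes is a description and no test. Of 7 genes of thymidylate and purine synthesis, 4 fell and 3 did not pass, for a median log2 fold change of −0.26. Gart, which carries out a formyl-dependent step of purine synthesis, had 9.66, 10.4 and 12.1 FPKM in C/D 1 to 3 and 17.9, 14.8 and 15.3 FPKM in Gel/S 1 to 3. Every C/D library was lower, with a log2 fold change of −0.53 (edgeR adjusted p = 0.00397). Atic, the enzyme of the last formyl-dependent step, fell by 0.50 on the log2 scale (edgeR adjusted p = 0.00382). Ppat, which starts the pathway, and Pfas had log2 fold changes of −0.39 and −0.26, and the Ppat call was lost when C/D 1 or C/D 2 was left out (adjusted p up to 0.0642) and that of Pfas in 8 of the 16 alternatives, among them leaving out any C/D library, Gel/S 2 or Gel/S 3 (highest 0.127). Tyms, which uses a carbon unit for thymidylate, did not pass (5.57 ± 0.693 FPKM in C/D and 6.47 ± 1.07 FPKM in Gel/S, SD, n = 3 each).

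Of 5 tested genes of folate entry and retention, 1 fell and 4 did not pass (median log2 fold change −0.21). Slc19a1, the reduced folate carrier, had 8.15, 7.70 and 8.56 FPKM in C/D 1 to 3 and 11.3, 10.9 and 11.0 FPKM in Gel/S 1 to 3 (log2 fold change −0.40, edgeR adjusted p = 0.00621). Among 4 tested genes of other folate-dependent exchange, 1 fell (25.0%). That gene, Aldh1l1, is the cytosolic counterpart of Aldh1l2, with 1.80, 1.64 and 1.57 FPKM in C/D 1 to 3 and 3.30, 2.97 and 3.16 FPKM in Gel/S 1 to 3 (log2 fold change −0.87, edgeR adjusted p = 0.0012). In the glycine cleavage system, a separate mitochondrial source of carbon units, Amt rose (3.84 ± 0.489 FPKM in C/D and 2.26 ± 0.0540 FPKM in Gel/S, log2 fold change 0.80, edgeR adjusted p = 0.00453), while Gcsh and Dld did not pass. Gldc, which the system needs, had at most 2 counts in any library of either group and was not tested.

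In the methionine cycle, which takes up methyl groups made from folate, 1 of 8 tested genes fell. Ahcy, which clears S-adenosylhomocysteine, had 3.15, 3.68 and 3.84 FPKM in C/D 1 to 3 and 8.41, 6.06 and 7.04 FPKM in Gel/S 1 to 3, a log2 fold change of −0.96 (edgeR adjusted p = 0.00104). The count was 3 without Gel/S 1 and 3 without Gel/S 2. Of 4 tested genes of transsulfuration and glutathione, 1 rose (25.0%, against 13.1% of all genes tested) and 3 did not pass. Without Gel/S 1, 2 of them changed. Gclm, a subunit of the enzyme that starts glutathione synthesis, averaged 10.7 ± 0.600 FPKM in C/D and 7.64 ± 0.747 FPKM in Gel/S (log2 fold change 0.53, edgeR adjusted p = 0.00327).

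Among 13 tested genes of serine and glycine transport and use, 3 fell, none rose and 10 did not pass (median −0.22). The share that fell was 23.1%, against 13.9% of all genes tested. Slc1a5, a neutral amino acid transporter that accepts serine, had 45.8, 45.0 and 43.1 FPKM in C/D 1 to 3 and 71.6, 69.1 and 64.4 FPKM in Gel/S 1 to 3 (log2 fold change −0.57, edgeR adjusted p = 0.00101). Sptlc1, which joins serine to palmitoyl-CoA at the start of sphingolipid synthesis, fell by 0.56 on the log2 scale. Serinc3 (log2 fold change −0.44) lost its call without any C/D library or without Gel/S 3 and in all 3 limma fits (highest adjusted p = 0.0936). The list's count was 7 without Gel/S 2.

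ATF4 is the transcription factor known to induce serine synthesis genes when amino acids run short. In the list of ATF4, its kinases and its other amino acid response targets, 2 of 18 tested genes rose, 2 fell and 14 did not pass, with a median log2 fold change of 0.03. Slc7a5, a leucine transporter, had 3.90, 4.06 and 4.46 FPKM in C/D 1 to 3 and 11.0, 7.82 and 6.49 FPKM in Gel/S 1 to 3 (log2 fold change −0.98, edgeR adjusted p = 0.00199). Slc7a1, a carrier of cationic amino acids, had a log2 fold change of −0.55, the gluconeogenic enzyme gene Pck2 one of 0.38 and the mTORC1 inhibitor gene Ddit4 one of 0.43. Calls were lost for Slc7a1 when C/D 1 or C/D 2 was left out (adjusted p up to 0.0882), for Pck2 without C/D 1 (0.0597) and in limma on TPM (0.142), and for Ddit4 when C/D 2 or C/D 3 was left out (up to 0.0980). Slc7a1 and Ddit4 also lost theirs in the 3 limma fits. The number of changed genes in the list was 2 without C/D 1. Atf4 and Asns were picked after their values were seen and do not stand for the list. The log2 fold changes of the 14 genes that did not pass ran from −0.21 (Sesn2) to 0.55 (Nupr1). Whether ATF4 activity differed was not tested. Atf4 had 71.6, 70.2 and 80.0 FPKM in C/D 1 to 3 and 72.0, 98.3 and 87.2 FPKM in Gel/S 1 to 3, and its overlapping groups did not pass (log2 fold change −0.17, edgeR adjusted p = 0.284). Asns, the asparagine synthetase gene and a standard ATF4 target, averaged 18.4 ± 2.39 FPKM in C/D and 19.2 ± 1.39 FPKM in Gel/S (SD, n = 3 each) and did not pass (log2 fold change −0.01, edgeR adjusted p = 0.935).

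Of 8 genes known to regulate the serine pathway, 3 fell, none rose and 5 did not pass (median −0.18). The share that fell was 37.5%, against 13.9% of all genes tested. Pkm, the pyruvate kinase gene whose product is activated by serine, averaged 803.5 ± 11.7 FPKM in C/D and 1209 ± 129 FPKM in Gel/S (log2 fold change −0.55, edgeR adjusted p = 0.00531). Myc, an activator of serine and folate enzymes, had 2.60, 2.22 and 1.93 FPKM in C/D 1 to 3 and 3.98, 3.90 and 3.25 FPKM in Gel/S 1 to 3 (log2 fold change −0.68, edgeR adjusted p = 0.0117), and it lost its call without C/D 3 (0.0562). Nfe2l2, the antioxidant regulator NRF2, had a log2 fold change of −0.33 and lost its call without C/D 1, C/D 2 or Gel/S 3 (highest adjusted p = 0.0599).

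**Figure D4:**
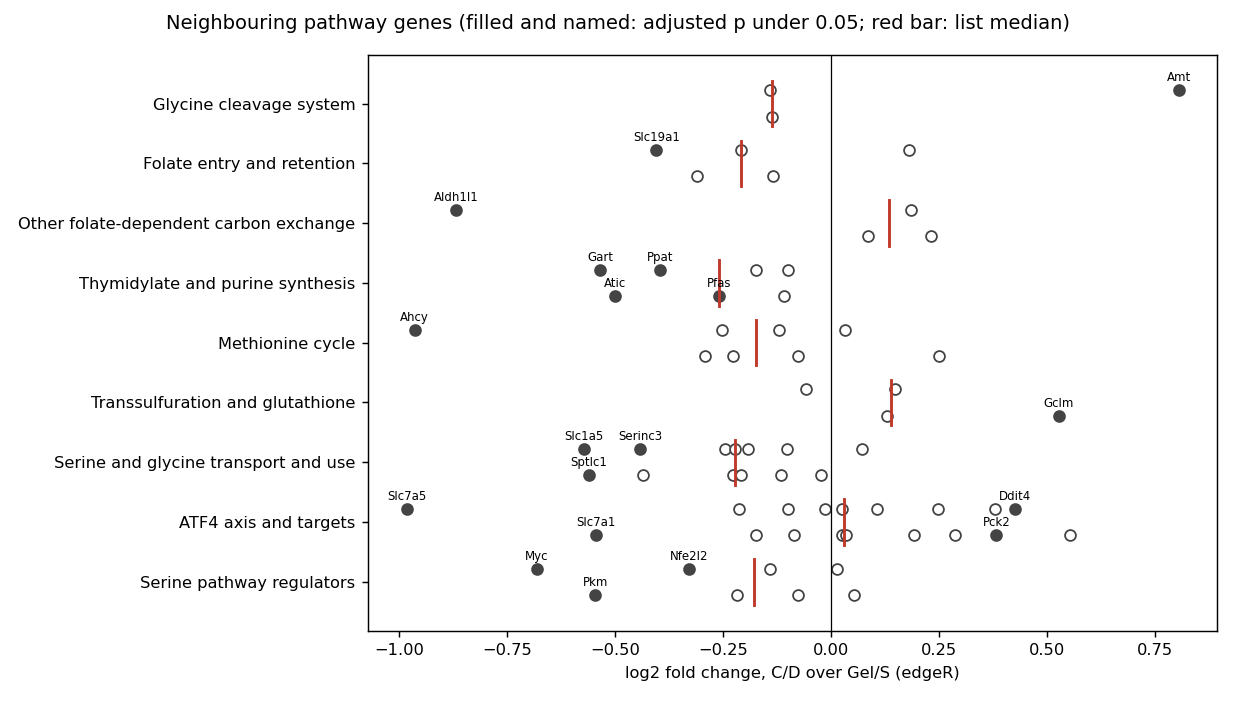
Log2 fold change of C/D over Gel/S (horizontal axis) for the 70 tested genes of 9 neighbouring pathway lists, filled and named where the edgeR adjusted p was under 0.05, with each list's median in red. The 15 named genes left of 0 fell and the 4 right of it, Amt, Gclm, Pck2 and Ddit4, rose.

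The genes whose values lay nearest to those of Mthfd1l, the member with the smallest adjusted p, were Lcp1, Actg1, Fam20c, Dhcr7 and Arhgdia. Nearness was the root mean square difference of log2 CPM (counts scaled to a common library total) over the 6 libraries, each gene centred on its own mean, and was 0.027 to 0.042. With 6 libraries in 2 groups this measure mostly reflects the difference between the groups.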

How the data were processed

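The 3 C/D and 3 Gel/S RAW264.7 libraries were made with a SMARTER mRNA-Seq kit per the labels' protocols. Sample titles gave group and replicate. The deposited raw counts per gene are not normalized, per the file headers. The deposited FPKM were made by the authors from counts, gene length and a library total whose scaling no source used here gives. The signal columns, the authors' group means of scaled counts, were not used. The authors' log2 fold changes (Gel/S over C/D) and p-values are deposited without a named test. The build is GRCm38 (mm10) per the submitters' processing notes. No source used here gives the aligner, the counter or the strandedness. Of 54495 gene IDs found in GENCODE M21, 98.33% have the same coordinates there.

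A spreadsheet had turned 27 symbols into dates, which were restored from gene IDs, and counts of 100 symbols with several entries were summed. Genes with a mean of at least 1 FPKM were tested with edgeR 4.0.16 (quasi-likelihood, TMM) in R 4.3.3, with Benjamini-Hochberg adjustment and a threshold of 0.05. Each SE was the size of the log2 fold change divided by the root of its F statistic. Alternatives used DESeq2 1.42.0 and limma 3.58.1. The pipeline was tested on simulated counts. Ratios were compared by 2-sided exact permutation tests. No pairing of the libraries by replicate number was detected. The members, gene lists and motifs were chosen with earlier results of these data known. A pathway gene is not reported here and was left out of the lists. Named pathway genes are up to 4 per list with the smallest adjusted p under 0.05, or 2 by p where none passed. Tyms, Gcsh, Dld, Mthfd2l, Atf4, Asns, Sesn2, Nupr1, Mycn, Gldc, Cbs, Cth and Slc1a4 lie outside that rule and were chosen after their values were seen.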

Additional observations from a re-analysis of the deposited data

How the results depend on the processing

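Psat1, Mthfd1, Mthfd2 and Mthfd1l kept their direction and their call in all 16 alternatives: RLE or upper-quartile factors, DESeq2, 3 other filters on low values, limma on log2(FPKM + 1), log2(FPKM + 0.1) and log2(TPM + 1), a replicate block, and leaving out each library. The number of members that fell was 4 to 6, and 4 with the replicate block. The all-gene median was −0.12 (log2) in limma on log2(TPM + 1), −0.03 in limma on log2(FPKM + 1) and 0.01 in edgeR as reported, with 633, 1020 and 1532 genes risen and 1510, 1471 and 1631 fallen in that order. In the TPM fit Phgdh (−0.30, adjusted p = 0.0430) and Shmt2 (−0.40, 0.0175) passed, and relative to that median they were −0.18 and −0.29, as against −0.17 and −0.29 in the reported fit. Shmt2 also passed without a filter (0.0137), with filterByExpr (0.0346) and without Gel/S 1 (0.00575). The sign of Psph turned to −0.00018 with RLE factors, −2.6e-05 with DESeq2, −0.045 without a filter, −0.027 with filterByExpr, −0.028 on log2(FPKM + 1), −0.032 on log2(FPKM + 0.1) and −0.11 on TPM, and leaving out single libraries gave −0.11 to 0.10; that of Shmt1 turned to 0.045 without Gel/S 2 (range −0.14 to 0.045). The causes were not tested. Without a filter or with filterByExpr, Aldh1l2 had log2 fold changes of −0.04 and −0.02 (edgeR adjusted p = 0.945 and 0.957). Leaving out single libraries gave 1804 to 4078 changed genes in all and 13 to 26 changed pathway genes, against 19 as reported. The replicate block gave 2544 changed genes and 18 pathway genes. Deviations of same-numbered libraries correlated at −0.06, −0.06 and 0.05, so no pairing by number was detected, which does not exclude one. With the block, the ratio differences were unchanged by construction, with exact sign-flip p of 0.25 to 1.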

Other observations

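Myc and Mycn, close relatives that bind the same E-box, lay at very different levels in both groups, which was seen only after the values were read. Mycn had 176, 220 and 203 FPKM in C/D 1 to 3 and 221, 227 and 233 FPKM in Gel/S 1 to 3, while Myc averaged 2.25 ± 0.336 FPKM in C/D and 3.71 ± 0.405 FPKM in Gel/S (SD, n = 3 each). In FPKM all C/D libraries were below all Gel/S libraries for Mycn, but C/D 2 (220.4) and Gel/S 1 (221.0) nearly met. Such a separation was seen for 27.1% of all genes tested. Mycn did not pass (log2 fold change −0.14, edgeR adjusted p = 0.319).

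Several genes of neighbouring branches were nearly undetected in both groups. Gldc, the decarboxylase that the glycine cleavage system needs, had 0.0169 ± 0.0166 FPKM in C/D and 0.0166 ± 0.0167 FPKM in Gel/S. Cbs and Cth, the enzymes of transsulfuration, had at most 0.092 and 0.0953 FPKM in C/D and 0.0927 and 0.161 FPKM in Gel/S libraries. Slc1a4, a serine carrier of many tissues, had 0.0818 ± 0.0520 FPKM in C/D and 0.159 ± 0.168 FPKM in Gel/S (SD, n = 3 each). No test was run at these levels.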
